A study of Homo sapiens with 6 samples.

Results

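Smooth muscle contractile genes encode the myosin, the actin-binding proteins and the anchors with which vascular and visceral muscle shortens. The 9 genes described here are CNN1, TAGLN, MYH11, CALD1, SMTN, LMOD1, MYL9, MYLK and SYNPO2, chosen by symbol. They are 9 of the 35793 genes listed in the series, and all 9 passed the filter on low values that left 15536 genes for testing. In the STK25 knockout cardiomyocytes MYH11, MYLK, TAGLN, SMTN and CNN1 rose, from a 33.4-fold higher mean for MYH11 to a 2.03-fold higher mean for CNN1. CALD1, LMOD1 and SYNPO2 had higher means that did not pass the test, and MYL9 had nearly the same mean in both genotypes.

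Smooth muscle contraction is switched on when calcium-bound calmodulin activates myosin light chain kinase (MYLK), which phosphorylates the regulatory light chain and lets smooth muscle myosin pull on actin. A phosphatase that RhoA and its kinases hold in check switches it off. Many of these genes carry CArG boxes, the binding sequence of serum response factor (SRF), which acts on them with its coactivator myocardin. The developing heart is known for transient smooth muscle gene expression in its cardiomyocytes, TAGLN and ACTA2 among others.

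RNA was sequenced from cardiomyocytes on day 15 after the start of differentiation from human induced pluripotent stem cells. The wild-type group came from WTC11, an established cell line, and the STK25KO group from a derivative of it with a homozygous CRISPR/Cas9 knockout of STK25, a serine/threonine kinase. No other treatment was given to either group. Each genotype had 3 biological replicates, or 6 libraries in all, and the knockout was 1 line, so the edit and any other difference between the lines cannot be told apart.

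The libraries held 22443904 to 53224112 reads assigned to genes. Normalized counts, reads divided by 1 factor per library, are the unit of every level below. STK25 itself was lower in the knockout, at 45.8% of the wild-type mean (log2 change -1.12 with an SE of 0.19, limma adjusted p = 0.00903; without wild-type replicate 1 the adjusted p was 0.0611). Markers of cardiomyocytes were high in both genotypes, with summed counts of 14 genes, mostly from ACTC1, MYL7 and TNNT2, of 2111962 to 2502927 in wild-type and 3382588 to 5233093 in knockout libraries. Of the 14, limma called 0 higher and 2 lower: NKX2-5, a cardiac transcription factor (log2 change -1.71, adjusted p = 0.00135), and PLN, which encodes phospholamban (-0.76, adjusted p = 0.0459, up to 0.173 with 1 library left out). Limma called 5.97% of all tested genes higher and 6.79% lower. Among the 14, there were 6 higher and 3 lower at an unadjusted p under 0.05. That cut took in 4275 of all 15536 tested genes, both directions together. edgeR called 1 and 3, and DESeq2 6 and 3, with MYH6 as the third lower gene. Of all tested genes edgeR called 5.57% higher and 6.42% lower, and DESeq2 10% and 10.7%. Wild-type replicate 2 and knockout replicate 1 stood apart in the same way. In them, genes with transcripts under 1 kb lay 0.54 and 0.61 log2 units above their genotype's mean (medians of 1310 genes), and genes with transcripts of 3 to 4.5 kb lay 0.23 and 0.25 units below it (3344 genes).

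Of the 9 genes, 5 were called higher in the knockout and 0 lower, with an adjusted p under 0.05 from limma over all 15536 genes. Of all tested genes 5.97% were called higher and 6.79% lower. At an unadjusted p under 0.05 there were also 0 lower members, beside 4275 of all 15536 genes in both directions together. edgeR on the recovered reads called 5 higher and 0 lower, beside 5.57% and 6.42% of all genes. DESeq2 also called 5 and 0, beside 10% and 10.7%. Leaving out wild-type replicate 1, 2 or 3 left 3, 3 and 4 members called higher, beside 2.57%, 5.01% and 2.90% of all genes. Leaving out knockout replicate 1, 2 or 3 left 5, 3 and 3, beside 6.48%, 3.39% and 2.37%. With equal library totals 3 members were called, beside 3.53%. The median log2 fold change of the 9 was 1.03, beside 0.0052 for all genes tested. In 7 of the 9 every knockout value lay above every wild-type value, which 16.2% of all tested genes showed in that direction and 17.2% in the other. For those 7 an exact two-sided permutation test gave p = 0.1, the smallest p that 3 against 3 allows. In bulk RNA, a different number of cells that express a gene and a different amount of RNA per cell cannot be told apart.

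**Figure D1:**
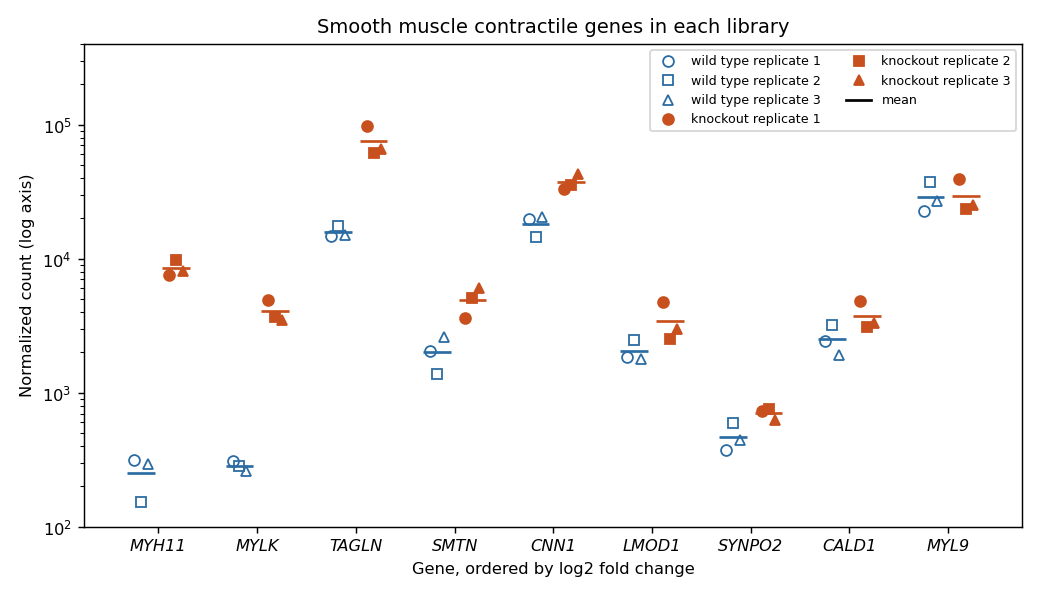
Normalized counts (log axis) of the 9 smooth muscle contractile genes in each library, ordered by log2 fold change, with open blue symbols for wild type, filled orange symbols for knockout, 1 symbol shape per replicate number and lines at the means. MYH11 and MYLK show the widest gap between the genotypes, while the values of CALD1 and MYL9 overlap.

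The myosin motor and its switch came first by size of change. MYH11 (ENSG00000133392.17, minus strand of chromosome 16, 15703172 to 15857033 in GENCODE 29 on GRCh38) encodes the heavy chain of smooth muscle myosin and is the most restricted marker of that lineage. It had 314, 152 and 295 normalized counts in wild-type replicates 1, 2 and 3 and 7561, 9796 and 8121 in knockout replicates 1, 2 and 3. Every knockout library stood far above every wild-type library. The means were 254 ± 88.5 and 8493 ± 1163 (SD, n = 3 each). The log2 fold change was 5.12 with a 95% interval of 4.41 to 5.82 (SE 0.30, limma adjusted p = 0.000175). Only 0.360% of all tested genes had a larger log2 fold change. Its adjusted p was at most 0.00175 when any 1 library was left out.

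MYLK (ENSG00000065534.18, minus strand of chromosome 3, 123610049 to 123884331) encodes the kinase that phosphorylates the regulatory light chain. It had 308, 282 and 261 normalized counts in the wild type and 4946, 3704 and 3468 in the knockout. The wild-type values lay close together and far under the knockout values. Its mean went from 284 ± 23.7 to 4039 ± 794 (SD, n = 3 each), 14.2-fold higher, with a log2 fold change of 3.81 (95% interval 3.31 to 4.31, SE 0.22, limma adjusted p = 0.000144). This call also held in 6 of 6 fits that left out 1 library. The gene has long transcripts for the kinase and a start near its 3′ end that gives telokin, a short product without a kinase domain. Gene totals do not separate them.

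MYL9 (ENSG00000101335.9, plus strand of chromosome 20, 36541484 to 36551447) encodes the regulatory light chain that MYLK phosphorylates, and it behaved otherwise. Its wild-type values were 22617, 37329 and 26753 normalized counts, and its knockout values 39161, 23360 and 25292. In both genotypes 1 library was high, wild-type replicate 2 and knockout replicate 1, and the genotypes overlapped. The means were 28900 ± 7587 and 29271 ± 8619 (SD, n = 3 each), with a log2 fold change of 0.012 (limma adjusted p = 0.987). The 95% interval of -0.66 to 0.68 leaves room for changes of either sign.

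Among the thin filament proteins, TAGLN (ENSG00000149591.16, plus strand of chromosome 11, 117199321 to 117204782) encodes transgelin, an actin cross-linker and an early smooth muscle marker. It had 14852, 17608 and 15067 normalized counts in the wild type and 98542, 61115 and 65327 in the knockout. The lowest knockout library was well above the highest wild-type library, and knockout replicate 1 stood over the other two. The mean was 4.73-fold higher, at 74995 ± 20501 against 15843 ± 1533 (means ± SD of 3 libraries; log2 change 2.21, 95% interval 1.64 to 2.79, SE 0.25, limma adjusted p = 0.00164). The adjusted p was at most 0.0165 when any 1 library was left out.

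CNN1 (ENSG00000130176.7, plus strand of chromosome 19, 11538717 to 11550323) encodes calponin 1, which binds actin and inhibits the myosin ATPase. Wild-type values were 19687, 14639 and 20508 normalized counts, and knockout values 33108, 35672 and 42767. The genotypes did not overlap, but the gap was narrower than for MYH11, MYLK and TAGLN. Its means of 18278 ± 3178 and 37182 ± 5004 (SD, n = 3 each) gave a log2 fold change of 1.03 (95% interval 0.51 to 1.55, SE 0.22, limma adjusted p = 0.0228). The call rested on the full set of libraries: leaving out wild-type replicates 1, 2 or 3 or knockout replicates 2 or 3 gave adjusted p-values of 0.0897, 0.0545, 0.0692, 0.0622 and 0.107. Only without knockout replicate 1 did it stay past the threshold (adjusted p = 0.0196). With equal library totals, which shifted the median of all genes to -0.27, its log2 fold change was 0.75 (adjusted p = 0.109), and with quantile normalization 0.62 (adjusted p = 0.237).

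CALD1 (ENSG00000122786.19, plus strand of chromosome 7, 134744252 to 134970728) encodes caldesmon, an actin and myosin binding inhibitor with a long smooth muscle and a short widespread form. Gene totals do not separate the forms. It had 2438, 3226 and 1907 normalized counts in the wild type and 4858, 3075 and 3288 in the knockout, and the genotypes overlapped through wild-type replicate 2. The log2 fold change of 0.57 (95% interval -0.05 to 1.19, limma adjusted p = 0.220) did not pass. The 14 other tested genes within 1000 kb had a median log2 fold change of -1.14. Of them 3 were called lower and 0 higher, beside 6.79% and 5.97% of all tested genes. Around the other 8 members the medians ran from -0.18 to 0.18, and as many or more genes fell around SYNPO2 (4 of 13), TAGLN (4 of 17) and LMOD1 (4 of 29). Counts of genes called higher ran from 0 around TAGLN, MYLK and SYNPO2 to 5 of 60 around CNN1.

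Of the genes for actin assembly and anchoring, SMTN (ENSG00000183963.18, plus strand of chromosome 22, 31064105 to 31104757) encodes smoothelin, an actin-associated protein of contractile smooth muscle. It had 2036, 1390 and 2591 normalized counts in the wild type and 3588, 5128 and 6069 in the knockout, without overlap. The means were 2006 ± 601 and 4929 ± 1252 (SD, n = 3 each), with a log2 fold change of 1.31 (95% interval 0.63 to 1.99, SE 0.29, limma adjusted p = 0.0262). This call also depended on single libraries, since the adjusted p rose to 0.0930 or 0.0580 on leaving out wild-type replicate 1 or 2, and to 0.0762 or 0.106 on leaving out knockout replicate 2 or 3. Equal totals gave 1.03 (adjusted p = 0.119).

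LMOD1 (ENSG00000163431.12, minus strand of chromosome 1, 201896452 to 201946588) encodes leiomodin 1, an actin nucleator of smooth muscle. Its 1864, 2457 and 1799 wild-type normalized counts lay just under the 4764, 2516 and 3012 of the knockout. The separation between wild-type replicate 2 and knockout replicate 2 was small, and the log2 fold change of 0.71 (95% interval 0.07 to 1.35, limma adjusted p = 0.140) did not pass. SYNPO2 (ENSG00000172403.10, plus strand of chromosome 4, 118850688 to 119061247) encodes synaptopodin 2, an actin-bundling protein of the Z-disc and of smooth muscle dense bodies. Its values were 376, 592 and 444 normalized counts in the wild type and 726, 758 and 622 in the knockout. They were separate by a small margin too, with a log2 fold change of 0.60 (95% interval 0.02 to 1.17, limma adjusted p = 0.166).

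The replicates did not move together across the 9 genes. Relative to their genotype's mean, wild-type replicate 2 and knockout replicate 1 were both high for TAGLN, CALD1, LMOD1, MYL9 and SYNPO2. Both were low for CNN1, MYH11 and SMTN. The deviations of SMTN in the 2 libraries were -0.48 and -0.42 log2 units, while those of MYL9 were 0.40 and 0.46. Without these 2 libraries, a choice made after the values were seen, 8 of the 9 genes were called higher, all but MYL9, beside 15.7% of all genes tested. CALD1, LMOD1 and SYNPO2 then had log2 fold changes of 0.56, 0.59 and 0.75 with limma adjusted p-values of 0.0216, 0.0143 and 0.0277 from 2 libraries per genotype. After trends over transcript length and GC content were removed per library, the count was 5, beside 10% of the 15174 genes with a known length. What sets the 2 libraries apart was not tested.

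**Figure D2:**
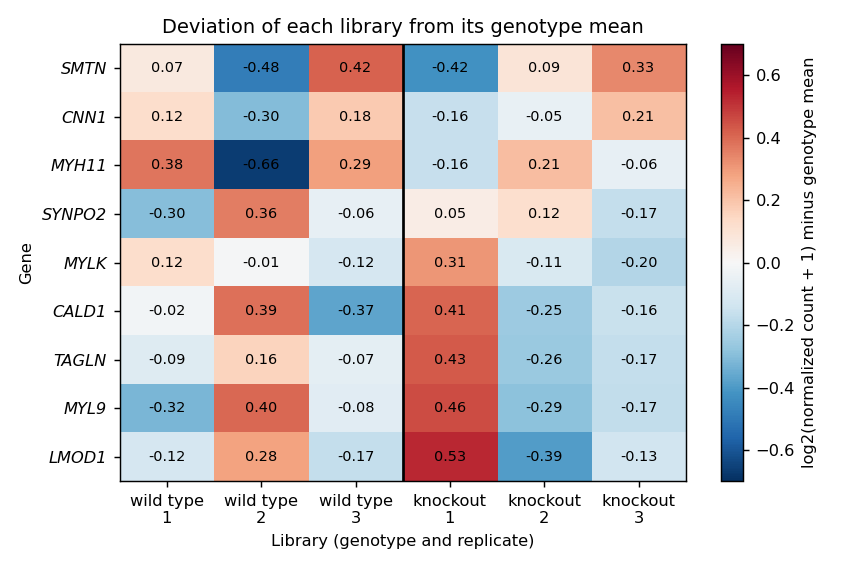
Each cell gives a library's log2(normalized count + 1) less the mean of its genotype, for the 9 genes (rows) in the 6 libraries (columns), with red above and blue below the mean. Wild-type replicate 2 and knockout replicate 1 share their sign in 8 of the 9 genes, low for SMTN, CNN1 and MYH11 and high for SYNPO2, CALD1, TAGLN, MYL9 and LMOD1.

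Levels were compared between genes only after division by the length of the principal transcript in GENCODE 29, which is an approximation because the isoforms in use are not resolved. In the wild type TAGLN (12912 ± 1249 normalized counts per kb, SD, n = 3), CNN1 (11193 ± 1946) and MYL9 (10245 ± 2690) stood at the top and overlapped one another. CALD1, SMTN and LMOD1 followed at 837, 627 and 514 per kb, each overlapping its neighbour. SYNPO2, MYH11 and MYLK were the lowest, at 64.5, 42.1 and 32.2 per kb. In the knockout the order per kb was TAGLN, CNN1, MYL9, SMTN, MYH11, CALD1, LMOD1, MYLK and SYNPO2. TAGLN reached 61120 ± 16708 per kb, CNN1 22769 ± 3064 and MYL9 10376 ± 3055, with no overlap between neighbours among these 3. The length used for MYL9 was 2821 bases. A shorter form in use would raise its level per kb, so its place in either order depends on that length. MYH11 stood at 1409 ± 193 per kb, between SMTN and CALD1 and overlapping both. MYLK was at 459 ± 90.2 per kb, above SYNPO2 at 96.2 ± 9.73.

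Start regions were examined because several of the genes rose together and CArG boxes are the classic element of this gene group. RefSeq windows on GRCh38.p14, from 250 bases before to 50 after a start site, were at hand for 6 of the 9 genes (14 windows). MYH11, TAGLN and MYL9 had no window at hand and were not searched. The CArG box, 10 bases read alike on both strands, was searched only as an exact match. It begins with CC, goes on with 6 bases of A or T, and ends with GG. Boxes that depart from this pattern were not counted. An exact box was in 2 of the 14, at an internal start of MYLK and an internal start of SMTN. The windows of LMOD1, SYNPO2, CALD1 and CNN1 held none. Of all 35116 windows 1.29% held it. The MYLK start lies 96.2% of the way along the gene, where telokin begins, and the SMTN start 51.4% of the way along. No other MYLK window was at hand, so the starts of its long kinase transcripts were not searched. The 120 bases before each of these starts are shown with the box in capitals. Beside them are those of CNN1, which rose with no exact box in this window, and of SRF and ACTG2, a smooth muscle actin. The 2 windows of ACTA2, the smooth muscle actin that rose, hold no exact box and are not shown. Inexact boxes in them were not searched. The ACTG2 stretch holds 2 boxes, and the SRF gene also carries 2, next to its start.
MYLK, chr3:123620549-123620668, minus strand: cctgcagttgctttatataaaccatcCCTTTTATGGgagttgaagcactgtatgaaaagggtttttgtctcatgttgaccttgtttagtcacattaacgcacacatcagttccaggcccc
SMTN, chr22:31084876-31084995, plus strand: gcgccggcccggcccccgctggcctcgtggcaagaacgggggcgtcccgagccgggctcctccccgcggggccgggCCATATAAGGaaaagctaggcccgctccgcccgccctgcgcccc
CNN1, chr19:11538731-11538850, plus strand: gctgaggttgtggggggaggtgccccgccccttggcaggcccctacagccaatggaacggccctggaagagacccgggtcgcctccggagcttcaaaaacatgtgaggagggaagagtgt
SRF, chr6:43171149-43171268, plus strand: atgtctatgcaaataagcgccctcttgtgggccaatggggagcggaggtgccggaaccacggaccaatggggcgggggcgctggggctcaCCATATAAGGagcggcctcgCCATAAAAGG
ACTG2, chr2:73892888-73893007, plus strand: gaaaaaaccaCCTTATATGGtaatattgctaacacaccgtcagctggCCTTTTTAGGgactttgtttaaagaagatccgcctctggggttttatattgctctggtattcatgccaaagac

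The box begins 94 bases before the MYLK start and 44 bases before the SMTN start. A match is a description of the letters in these windows. Inexact boxes, and elements elsewhere in the genes, were not searched. Beside these letters stand the changes in gene totals: MYLK had a log2 fold change of 3.81 and SMTN 1.31. The MYLK total does not separate telokin from the kinase transcripts, whose starts were not searched. SRF had 0.59 (limma adjusted p = 0.0955) and ACTG2, at 6.04 to 37.9 normalized counts over the 6 libraries, had 0.46 (limma adjusted p = 0.791).

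Most smooth muscle contractile genes have close relatives in non-muscle or striated cells, and 18 such paralogs of 8 members were listed (CALD1 has none in the list). The list is not complete. For MYH11 it leaves out the striated heavy chain genes MYH3, MYH6 and MYH7, with log2 changes of 5.09, -1.14 and 1.42. Their limma adjusted p-values were 0.000449, 0.0531 and 0.0639. For MYL9 it leaves out the cardiac light chain gene MYL7 (1.37, limma adjusted p = 0.114). Of these, 15 were tested with limma: 6 rose (beside 5.97% of all tested genes), 0 fell (beside 6.79%) and 9 did not pass. Their median log2 fold change was 0.84. At an unadjusted p under 0.05 there were 10 higher and 1 lower, beside 4275 of all 15536 genes in both directions together. edgeR called 6 and 0, beside 5.57% and 6.42% of all genes. DESeq2 called 8 and 1, beside 10% and 10.7%, adding CNN2 and MYH14 as higher and CNN3 as lower. TAGLN2, the widespread transgelin, rose from 918 ± 65.4 to 2186 ± 79.2 normalized counts (means ± SD of 3 libraries; log2 change 1.25 with an SE of 0.18, limma adjusted p = 0.00417). LMOD3, the skeletal leiomodin, rose from 86.8 ± 15.3 to 492 ± 41.4 (log2 change 2.50 with an SE of 0.28, limma adjusted p = 0.00156). The cardiac leiomodin LMOD2 had -0.33 (limma adjusted p = 0.391).

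Both light chain paralogs of MYL9 were called higher. MYL12A, a non-muscle regulatory light chain, had 14970, 19359 and 14895 normalized counts in the wild type and 59073, 36355 and 41650 in the knockout (log2 change 1.46 with an SE of 0.25, limma adjusted p = 0.00967). MYL12B had 12926, 13900 and 12204 against 31929, 19473 and 22541 (log2 change 0.89 with an SE of 0.23, limma adjusted p = 0.0439). Both were separate between genotypes where MYL9 overlapped. MYL12A was over the threshold without wild-type replicates 1 or 3 (adjusted p up to 0.0629), and MYL12B passed only without knockout replicate 1 among those fits (adjusted p up to 0.164). MYL12B also missed the threshold with equal upper quartiles (0.0752), equal totals (0.0626), no filter on low values (0.0717), no trend in eBayes (0.0777) and a robust trend (0.0552). Reads of these near-identical genes could have been split between them.

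Among the calponins, CNN2 had a log2 fold change of 0.84 (limma adjusted p = 0.0606) and CNN3 one of -0.77 (limma adjusted p = 0.0978). Their adjusted p-values were 0.0103 and 0.0436 with DESeq2, and 0.0350 and 0.0430 with limma after length and GC trends were removed. Every CNN3 value in the knockout, 5765 to 9681 normalized counts, lay under every wild-type value, 11350 to 15595. The non-muscle myosins MYH9 (0.83, limma adjusted p = 0.128), MYH10 (0.36, limma adjusted p = 0.476) and MYH14 (1.81, limma adjusted p = 0.0566) did not pass in that fit, nor did the cardiac kinase MYLK3 (0.70, limma adjusted p = 0.162), MYLK4 (-1.19, limma adjusted p = 0.573) or SMTNL2 (-0.14, limma adjusted p = 0.789). MYH14 passed with DESeq2 (adjusted p = 0.00493), and MYH14 and MYLK3 passed with length and GC trends removed (limma adjusted p = 0.0348 and 0.0410). SYNPO (log2 change 1.70 with an SE of 0.35, limma adjusted p = 0.0200) and SYNPO2L, the heart form (0.88, SE 0.20, limma adjusted p = 0.0253), rose. SYNPO was over the threshold without wild-type replicates 1 or 3 or knockout replicate 2 (adjusted p up to 0.0818), and SYNPO2L without any single library but knockout replicate 1 (adjusted p up to 0.110). TAGLN3, SMTNL1 and MYLK2 had means under 10 normalized counts and were not tested.

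**Figure D3:**
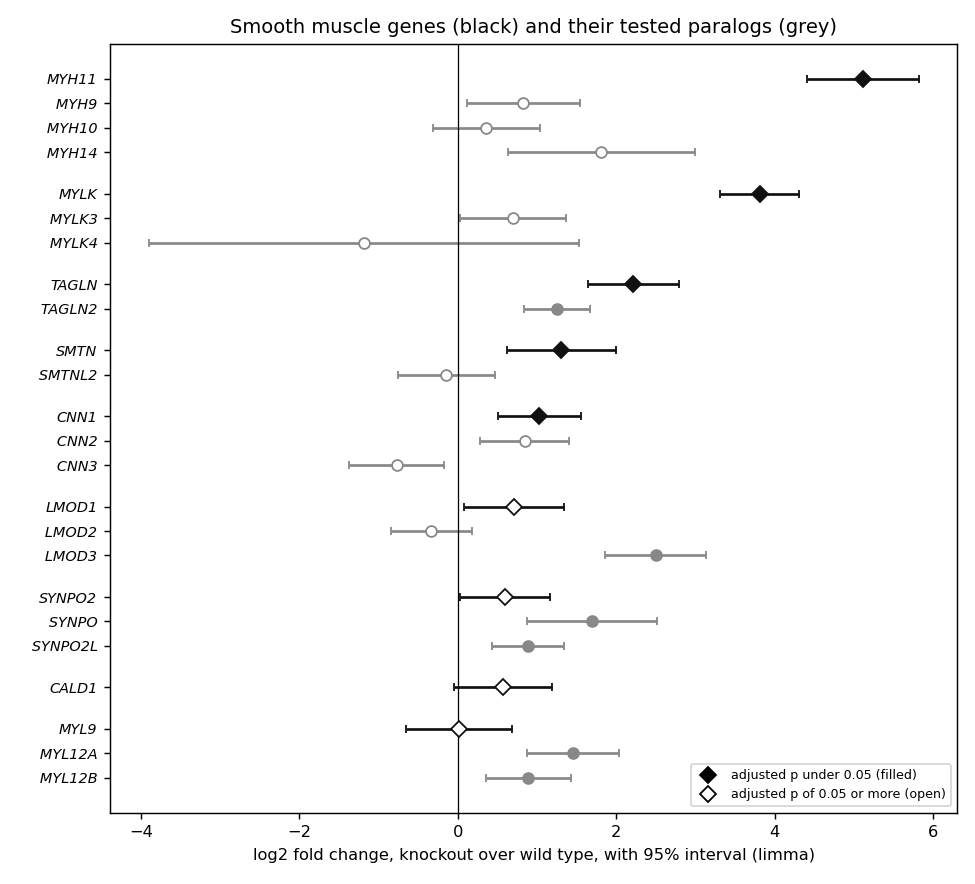
Log2 fold change, knockout over wild type, with its 95% interval from limma, for each smooth muscle gene (black diamonds) and its tested paralogs (grey circles), where filled symbols have an adjusted p under 0.05. MYH11 (5.12) and MYLK (3.81) lie beyond every listed and tested paralog of their own, while MYL9 (0.012) lies under MYL12A (1.46) and MYL12B (0.89). Striated heavy chain genes were not listed, among them MYH3 with 5.09.

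The share of a member in the normalized counts of its family does not depend on how libraries were scaled, though it does depend on transcript lengths as a level. A family here is the member with its listed paralogs only. The MYH11 share therefore leaves out MYH6 and MYH7, at wild-type means of 142436 and 93527 normalized counts. The MYL9 share leaves out MYL7, at 541523. MYH11 made up 2.46%, 1.97% and 2.03% of the 4 myosins MYH11, MYH9, MYH10 and MYH14 in the wild type and 37.2%, 34.0% and 34.0% in the knockout. MYLK went from 7.38% ± 2.58 to 40.3% ± 6.72 of its kinase family (SD, n = 3 each). CNN1 made up 48.9% ± 0.57 of the calponins in the wild type and 68.1% ± 5.06 in the knockout. SMTN went from 24.7% ± 4.30 to 47.1% ± 2.28, LMOD1 from 33.1% ± 2.91 to 47.3% ± 2.76 and TAGLN from 94.5% ± 0.22 to 97.0% ± 0.78.

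MYL9 was the member whose share was lower in the knockout. It made up 44.8%, 52.9% and 49.7% of the 3 listed light chains in the wild type and 30.1%, 29.5% and 28.3% in the knockout, with no overlap. The share of SYNPO2 overlapped, at 4.06% ± 1.32 and 3.22% ± 0.21 (SD, n = 3 each). An exact two-sided permutation test gave p = 0.1 for the 7 families without overlap, 6 higher and 1 lower, and p = 0.4 for SYNPO2. Adjusted over the 8 families these were 0.114 and 0.4, so none passed a threshold that 3 against 3 could not reach.

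**Figure D4:**
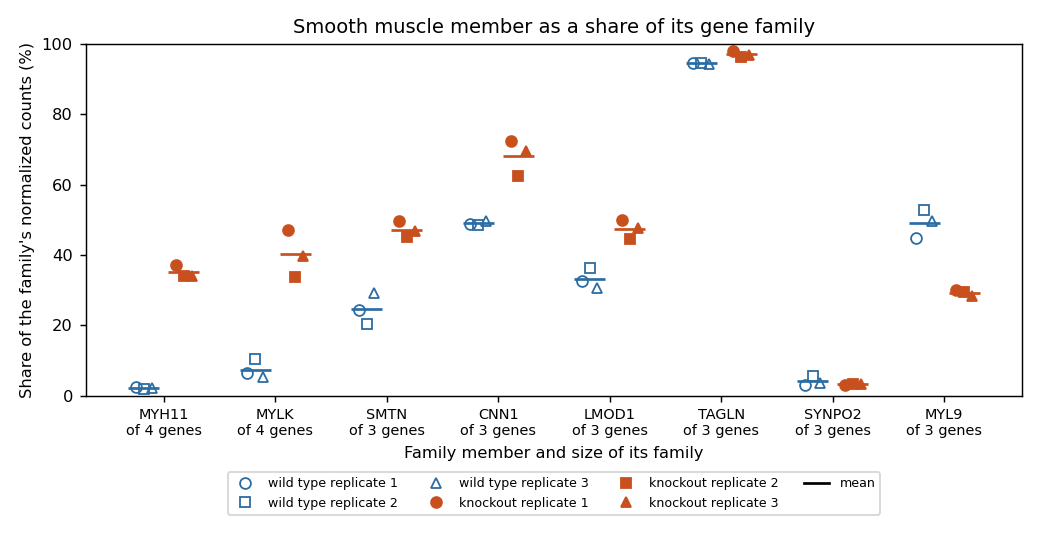
Percent of a gene family's normalized counts that came from the smooth muscle member, per library (open blue wild type, filled orange knockout, lines at the means), for 8 families of 3 or 4 listed genes. The share was higher in every knockout library for 6 members, overlapped for SYNPO2 and was lower for MYL9.

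Other genes of the contractile apparatus and its control were counted from lists. The limma counts of each list stand beside 5.97% of all tested genes called higher and 6.79% called lower. Of 20 further filament and anchor genes 7 rose, 2 fell and 11 did not pass, with a median log2 fold change of 0.70. ACTA2, smooth muscle alpha-actin, had 52943, 45593 and 49862 normalized counts in the wild type and 396839, 380239 and 390229 in the knockout (log2 change 2.98 with an SE of 0.24, limma adjusted p = 0.000420). Actin genes are nearly identical, so reads could have been split between them. FHL1, a LIM protein of muscle, rose from 313 ± 165 to 5793 ± 728 (means ± SD of 3 libraries; log2 change 4.34, limma adjusted p = 0.000572), and the tropomyosin TPM4 by 1.14 (limma adjusted p = 0.00717).

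CSRP1 and PGM5 went the other way. CSRP1, a LIM protein typical of smooth muscle, had 5862, 4198 and 6473 normalized counts in the wild type and 512, 265 and 260 in the knockout, a log2 fold change of -4.04 (SE 0.32, limma adjusted p = 0.000387). PGM5, an adhesion protein of muscle, fell from 500 ± 92.1 to 83.3 ± 22.7 (means ± SD of 3 libraries; log2 change -2.59, limma adjusted p = 0.00234). Both kept their calls in 6 of 6 fits that left out 1 library.

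Genes that switch light chain phosphorylation were counted without MYLK, given above. Limma called 5.97% of all tested genes higher and 6.79% lower, so few calls among 18 genes say little about this group. Of 18 genes for calmodulin, RhoA, its kinases and exchange factors, and the myosin phosphatase, 0 rose, 1 fell and 17 did not pass with limma. At an unadjusted p under 0.05 there were 1 higher and 3 lower, edgeR called 0 and 1, and DESeq2 called 1 (RHOA) and 2. Beside these stand 4275 of all 15536 genes at the unadjusted cut, both directions together. edgeR called 5.57% and 6.42% of all genes, and DESeq2 10% and 10.7%. Their median log2 fold change was 0.12, or -0.16 with equal totals. The gene that fell was PPP1R14C, a phosphatase inhibitor (log2 change -0.99 with an SE of 0.25, limma adjusted p = 0.0377), a call that among the fits leaving out 1 library held only without knockout replicate 1 (adjusted p up to 0.147).

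Of 21 tested regulators of smooth muscle genes 5 rose, 1 fell and 15 did not pass, with a median of 0.59. SRF, the factor that binds CArG boxes, had 1495, 1261 and 1497 normalized counts in the wild type and 2516, 2049 and 1882 in the knockout (log2 fold change 0.59, 95% interval 0.13 to 1.05, limma adjusted p = 0.0955). MYOCD, which encodes myocardin, had 6357, 4165 and 6387 against 3719, 3696 and 3302 (-0.63, 95% interval -1.14 to -0.12, limma adjusted p = 0.107). The genotypes were separate for both, in opposite directions, and neither passed with limma on all libraries or with edgeR. DESeq2 called both (adjusted p = 0.0374 for SRF and 0.0436 for MYOCD), as did limma with length and GC trends removed (0.0321 and 0.0445). Without wild-type replicate 2 the limma adjusted p of MYOCD was 0.0352. The related coactivators MRTFA (0.66, limma adjusted p = 0.103) and MRTFB (-0.016, limma adjusted p = 0.979) did not pass. MRTFA passed with DESeq2 (adjusted p = 0.0480) and with length and GC trends removed (limma adjusted p = 0.0352).

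The regulators that did pass were led by HEY2, a repressor of the Notch pathway, which fell from 3227 ± 333 to 140 ± 47.1 normalized counts (means ± SD of 3 libraries; log2 change -4.57, limma adjusted p = 0.000177). ETS1 and KLF5, transcription factors of activated vascular smooth muscle among other cells, rose by 2.66 (limma adjusted p = 0.00599) and 2.37 (limma adjusted p = 0.00938), from low wild-type means of 16.5 and 41.4 normalized counts. MEF2C rose by 1.14 (limma adjusted p = 0.0138; up to 0.0601 without wild-type replicate 3, knockout replicate 2 or knockout replicate 3). HEYL rose by 2.35 (limma adjusted p = 0.0307), which held without knockout replicate 1 and in no other fit that left out 1 library (adjusted p up to 0.117).

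Channels and receptors of smooth muscle moved in both directions: of 17 tested, 2 rose, 3 fell and 12 did not pass, with a median log2 fold change of 0.026 that was -0.25 with equal totals and -0.020 with equal upper quartiles. KCNMA1, the pore of the large-conductance potassium channel, rose from 22.3 ± 2.81 to 358 ± 119 normalized counts (means ± SD of 3 libraries; log2 change 3.90, limma adjusted p = 0.00106), and ITGA1, a collagen receptor subunit, rose by 3.56 (limma adjusted p = 0.00110). GUCY1A1, a subunit of the nitric oxide receptor (-1.45, limma adjusted p = 0.00568), and PDE5A, a cGMP phosphodiesterase (-2.59, limma adjusted p = 0.00723), fell. GUCY1B1, the partner subunit of GUCY1A1, had -0.0036 (limma adjusted p = 0.996). P2RX1, an ATP-gated channel, fell by 2.24 (limma adjusted p = 0.0413), a call that among the fits with 1 library left out held only without knockout replicate 2 (adjusted p up to 0.118). DESeq2 also called it (adjusted p = 0.00429) and edgeR did not (adjusted p = 0.0516).

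**Figure D5:**
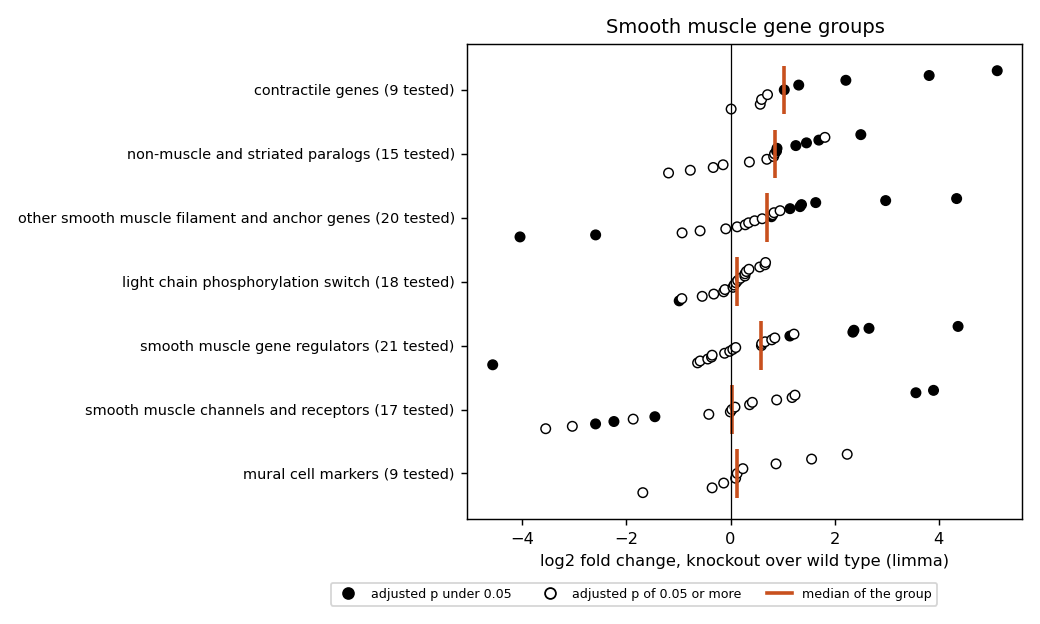
Log2 fold change, knockout over wild type (limma), of every tested gene in 7 groups, with 1 circle per gene, filled where the adjusted p was under 0.05, and an orange line at each group's median. The contractile genes have a median of 1.03 and no value under 0, the light chain phosphorylation genes have a median of 0.12 and the channels and receptors spread to both sides.

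Markers of other cell types were read beside these changes. Their limma counts stand beside 5.97% of all tested genes called higher and 6.79% called lower. The unadjusted counts stand beside 4275 of all 15536 genes, both directions together. With edgeR the shares of all genes were 5.57% higher and 6.42% lower, and with DESeq2 10% and 10.7%. Of 12 markers of pericytes and other mural cells 9 were tested and 0 passed in either direction with limma, and HIGD1B and COX4I2 had at most 3 reads in any library. At an unadjusted p under 0.05, PDGFRB and MCAM were higher and CSPG4 lower, edgeR called 0, and DESeq2 called 1, PDGFRB. The summed mural level was 13441 to 13799 normalized counts in the wild type and 12326 to 15442 in the knockout. Most of it came from RGS5 (9309 ± 679 and 8491 ± 453), so the sum says little about the others. PDGFRB had 35.9 ± 13.8 and 221 ± 212, and MCAM 1502 ± 507 and 2657 ± 437, both without overlap. CSPG4 had 237 ± 150 and 74.3 ± 57.3, with overlap (SD, n = 3 each). Of 12 tested fibroblast markers 4 rose and 1 fell, with summed levels of 16420 to 31402 and 11254 to 21199, and FAP had no read. TCF21 rose to 467 ± 67.9 from 22.2 ± 30.3 normalized counts (SD, n = 3 each) and THY1 to 188 ± 21.6 from 23.8 ± 6.48, while COL1A2 fell from 7514 ± 2839 to 240 ± 124. The limma adjusted p-values of these 3 were 0.00952, 0.00275 and 0.000616. COL3A1 rose from 760 ± 409 to 4446 ± 1939 (limma adjusted p = 0.0172, up to 0.0719 with 1 library left out). DCN rose from 13.4 ± 7.92 to 90.9 ± 31.3 (limma adjusted p = 0.0276, up to 0.112). At an unadjusted p under 0.05 there were 7 higher and 3 lower fibroblast markers. edgeR called 4 and 1, and DESeq2 5 and 2, adding DDR2 as higher and COL1A1 as lower.

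Endothelial markers CDH5, TIE1 and ERG had at most 3 reads in each library, and of 5 tested 1 rose, ESAM, from 13.5 ± 7.12 to 712 ± 85.3 normalized counts (SD, n = 3 each; limma adjusted p = 0.000496). The summed endothelial level was 1279 to 1401 in the wild type and 2093 to 2893 in the knockout. Most of it came from EGFL7 (1017 ± 173 and 1203 ± 413, SD, n = 3 each, limma adjusted p = 0.703) and, in the knockout, also from ESAM. The sum therefore says little about the others. Of 9 tested epicardial markers 2 rose and 1 fell with limma. TCF21 and ALDH1A2 rose, the latter from 6.37 ± 5.84 to 189 ± 87.3 normalized counts (limma adjusted p = 0.0141, up to 0.0660 with 1 library left out). KRT19 fell from 12908 ± 2007 to 4910 ± 130 (limma adjusted p = 0.00341). At an unadjusted p under 0.05, and with DESeq2, 4 were higher (WT1, TBX18, TCF21 and ALDH1A2) and 1 lower. Summed levels were 16261 to 17866 and 7645 to 10585, mostly from KRT19 and LRRN4. The skeletal muscle regulators MYOD1, MYF5 and PAX7 had no read in any library. Of 7 tested skeletal markers limma called 2 higher, CKM and MYH3, and 3 lower, ACTA1, MYH2 and TNNT3. For MYH3 the mean was 40.4 in the wild type and 1375 in the knockout (log2 change 5.09, limma adjusted p = 0.000449). ACTA1, MYH2 and TNNT3 had log2 changes of -0.91, -4.52 and -4.75 (limma adjusted p = 0.0317, 0.0147 and 0.0226). With 1 library left out these reached 0.148, 0.0895 and 0.0834. Sums of the skeletal list were 36422 to 40362 in the wild type and 114627 to 118143 in the knockout. Most of each sum came from CKM, which cardiomyocytes also express. The part of other cell types in the smooth muscle changes was not tested.

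Genes that overlap the members on the other strand could share reads with them if strand was not used in counting. NDE1 shares 765 exon bases with MYH11 and had a log2 fold change of -0.29 (limma adjusted p = 0.486), at 478 to 776 normalized counts. PCSK7 shares 446 exon bases with TAGLN and had 0.61 (limma adjusted p = 0.156), at 1302 to 2856 normalized counts. In each knockout library the counts of MYH11 and TAGLN exceeded the whole count of their neighbour. In each wild-type library this held for TAGLN, while MYH11, at 314, 152 and 295 normalized counts, was below NDE1, at 776, 570 and 611. What part of the low wild-type MYH11 level came from shared reads was not tested.

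Over the 6 libraries the standardized profiles of the 9 genes were averaged, and other genes with a mean of at least 50 were ranked by their correlation with that average. The nearest were MARCHF11, LSMEM2, HSD17B7, MYL12A and TESC, each with Pearson's r of 0.998 or above as rounded. Profiles over 6 libraries that differ by genotype are alike for many genes: 493 of 13027 had an r over 0.95. MARCHF11 had 61.9, 100.5 and 63.8 normalized counts in the wild type and 521, 281 and 304 in the knockout, high in knockout replicate 1 as TAGLN was.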

How the data were processed

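The authors deposited 1 table of normalized counts per gene symbol for 6 libraries. Per the submitters' processing notes, bcl2fastq 2.19, kallisto 0.44.0 and DESeq2 1.28.1 and the build GRCh38 were used. The annotation and any use of strand are not given in the sources used here. The deposited values are a signal in which 100% of values in each library were whole multiples of 1 step (within 0.01 reads), so reads could be recovered. They number 22443904 to 53224112 per library, a 2.37-fold range. Floors of 3 reads cover counting error only.

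Genes with a mean of at least 10 normalized counts were tested with limma 3.58.1 in R 4.3.3 on log2(value + 1), which understates changes of low genes, on genotype alone in all 6 libraries, with a trended eBayes prior. The Benjamini-Hochberg method covered all 15536 genes, at a threshold of 0.05. The recovered reads were also tested with edgeR 4.0.16 (quasi-likelihood) and DESeq2 1.42.0. Family shares were compared with exact permutation tests (scipy 1.17.1). The fits were run on simulated counts with planted changes, without the pattern that wild-type replicate 2 and knockout replicate 1 share. That run checked the code and does not bear on the calls.

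Members and lists were chosen with earlier results of these data known. Named genes are the members, STK25, the listed paralogs, up to 5 genes with the smallest adjusted p under 0.05 per other list, ACTA2, SRF, MYOCD, MRTFA and MRTFB, markers of other cell types and the 5 most similar profiles. ACTG2, NDE1, PCSK7 and genes outside that rule were named after their values were seen. Positions and lengths are from GENCODE 29, matched by symbol for 97.7% of tested genes, and start windows from RefSeq on GRCh38.p14. Figures were drawn with matplotlib 3.10.9 in Python 3.11.15. Leaving out wild-type replicate 2 with knockout replicate 1, removing length and GC trends, and shares per kilobase were added after the data were seen.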

Additional observations from a re-analysis of the deposited data

How the results depend on the processing

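The number of contractile genes called higher, 5, was 3 with equal totals and with a replicate block (2.24% of all genes), 3 to 5 with any 1 library left out and 8 without wild-type replicate 2 and knockout replicate 1. MYH11, MYLK and TAGLN passed under each alternative run, and 0 members were called lower under any. Over all genes, 927 higher calls became 549 with equal totals, 348 with the block, 369 to 1001 when 1 library was left out, 2418 without those 2 libraries, 1523 with length and GC trends removed and 1554 with DESeq2. The 1055 lower calls became 1461 with equal totals, so that the near balance became 549 against 1461. They became 1486 with length and GC trends removed, 450 with the block, 393 to 1191 when 1 library was left out, 2288 without the 2 libraries and 1656 with DESeq2. The causes were not tested, except that leaving out libraries lowers the residual degrees of freedom. The labels do not say whether the replicate numbers pair the samples. Deviations of same-numbered libraries correlated at -0.23, -0.40 and 0.17 over genes, and those of wild-type replicate 2 and knockout replicate 1 at 0.45. These values cannot settle the pairing, because deviations from a shared genotype mean are tied to one another.

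MYL9 changed sign, to -0.036 with upper quartiles, -0.27 with equal totals, -0.35 with quantiles, -0.15 and -0.028 without wild-type replicates 1 or 3, -0.22 without knockout replicate 1 and -0.017 without the 2 libraries, against 0.21 without wild-type replicate 2. SMTNL2 became 0.14 without knockout replicate 1 and 0.065 without the 2 libraries, against -0.32 without knockout replicate 3. MRTFB became 0.081 with quantiles, 0.078 without wild-type replicate 3, 0.055 and 0.12 without knockout replicates 1 or 3, 0.0084 without the 2 libraries, 0.0011 with length and GC trends removed and 0.0091 with DESeq2.

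With only the most abundant paralog, the differences in family share were 25.2 percentage points for CNN1 in place of 19.2, 42.2 for MYH11 in place of 32.9, -24.5 for MYL9 in place of -19.8 and 17.4 for LMOD1 in place of 14.2. Per kilobase they were 37.8 for MYH11, -13.0 for MYL9 and 18.3 for SMTN in place of 22.4. SYNPO2 went from -0.84 to 0.038 without the 2 libraries and -1.30 without wild-type replicate 1.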
